A study of Mus musculus with 9 samples.

Results

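Collagen folding and modifying enzymes were followed in F9 cells through 8 genes, Serpinh1, P4ha1, P4ha2, P4hb, Plod1, Plod2, Plod3 and Fkbp9. Members were the probe sets to which the platform annotation gives exactly 1 of these symbols. This found 10 of the 12422 probe sets other than controls, covering 6 of the 8 genes. Plod3 had 3 probe sets, P4ha2 and P4hb had 2 each, and Serpinh1, P4ha1 and Fkbp9 had 1 each. Plod1 and Plod2, further lysyl hydroxylases, were not analysed here, since none of the annotated probe sets carries their symbols.

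F9 is a mouse embryonal carcinoma line, used as a model because retinoic acid drives it toward endoderm. Cells received retinoic acid (RA) at 0.5 µM, trichostatin A (TSA), an inhibitor of histone deacetylases, at 0.07 µM, or, as vehicle, medium with ethanol, each for 24 h and on 3 arrays. All 9 arrays come from this single line, and the labels name no further agent or genetic change in any group. The labels do not state whether the 3 RNA samples of a group were grown as separate cultures, so the p-values below speak of the spread among these arrays only, which may be technical.

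Collagen chains are completed inside the endoplasmic reticulum before they leave the cell. Prolyl 4-hydroxylase, a complex of an alpha subunit (P4ha1 or P4ha2) with the disulfide isomerase P4hb, hydroxylates prolines, which stabilises the triple helix. Lysyl hydroxylases of the Plod family modify lysines for cross-linking and sugar attachment, and Serpinh1, known as Hsp47, is a chaperone that binds the folded helix. Both kinds of hydroxylase need iron, oxygen and ascorbate. Parietal endoderm, a cell type F9 cells can form, lays down a thick basement membrane rich in collagen IV.

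The upstream sequences of the genes with a called difference are shown because Serpinh1, Plod3 and Fkbp9 carried the results below. Each is the 250 bases before the annotated start, 5′ to 3′ on the gene's strand, from RefSeq (GRCm38.p6): Serpinh1 at chr7:99353240-99353489 on the minus strand, Plod3 at chr5:136986769-136987018 on the plus strand and Fkbp9 at chr6:56831809-56832058 on the plus strand. Capitals mark a match, on either strand, to GGGCGG (the GC box), AGGTCA (a half-site of nuclear receptors) or GAANNTTC (the core of a heat shock element).
Serpinh1: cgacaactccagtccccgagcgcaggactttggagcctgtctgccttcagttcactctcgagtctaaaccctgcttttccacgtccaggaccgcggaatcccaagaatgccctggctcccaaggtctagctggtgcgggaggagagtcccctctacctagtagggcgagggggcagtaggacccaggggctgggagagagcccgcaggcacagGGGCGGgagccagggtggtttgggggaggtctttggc
Plod3: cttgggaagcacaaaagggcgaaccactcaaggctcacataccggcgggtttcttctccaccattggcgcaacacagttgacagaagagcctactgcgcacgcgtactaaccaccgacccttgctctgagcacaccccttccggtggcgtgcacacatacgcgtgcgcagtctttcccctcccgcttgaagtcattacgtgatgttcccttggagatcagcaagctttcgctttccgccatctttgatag
Fkbp9: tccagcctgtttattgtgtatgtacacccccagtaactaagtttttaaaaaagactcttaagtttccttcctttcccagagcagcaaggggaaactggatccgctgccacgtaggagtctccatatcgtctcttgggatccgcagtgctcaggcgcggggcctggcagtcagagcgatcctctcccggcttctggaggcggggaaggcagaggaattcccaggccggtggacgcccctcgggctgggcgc

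Serpinh1 held 1 GC box, beginning 37 bases before the start, and the windows of Plod3 and Fkbp9 held none of the 3 motifs. Windows of members without a called difference held GC boxes too: 1 in P4ha1, 2 in P4ha2 and 3 in P4hb. Plod1, which was not analysed, held 2. Of 32851 RefSeq windows of this length, 32.7% held GGGCGG, 14.0% AGGTCA and 6.69% GAANNTTC. A match describes the letters of a window and is not a site of binding. The GC content was 63.6% for Serpinh1, 55.6% for Plod3 and 57.6% for Fkbp9, against a median of 52.4% over all windows.

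Each value is a linear ratio: the signal of a probe set on 1 array over the mean of that probe set on the 3 vehicle arrays. The vehicle mean is therefore 1 by construction, brightness is unknown, and levels of different genes cannot be set against each other. Changes were computed as differences of log2(ratio + 0.05), which understates changes of low values. A probe set was counted as changed where limma gave a Benjamini-Hochberg adjusted p under 0.05 over all 12422 probe sets. In these bulk samples, fewer cells of a type and less RNA per cell cannot be told apart.

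With RA, Serpinh1 rose to 2.27 times vehicle on the fitted scale, and with TSA, Fkbp9 fell to 0.260 times vehicle. In RA against TSA, Serpinh1 and Fkbp9 were higher in RA, by 2.59 and 2.98 times. Plod3 was higher there in 1 of its 3 probe sets, at 1.93 times, with 2.52 and 1.10 times in those that did not pass and 1.75 times in the gene mean, which did. The prolyl 4-hydroxylase subunits P4ha1, P4ha2 and P4hb passed in none of the 3 comparisons. The plot of each array's ratio shows these patterns.

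**Figure D1:**
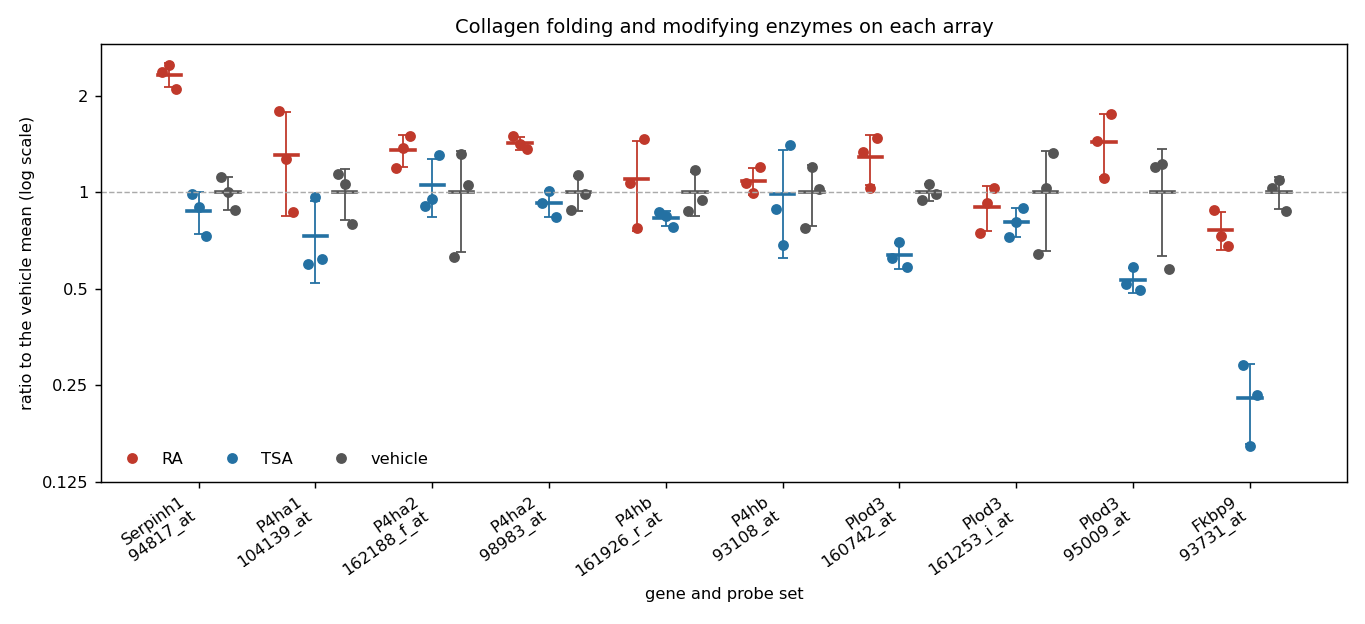
Ratio to the vehicle mean (log axis) of the 10 probe sets on each array, for RA (red), TSA (blue) and vehicle (grey), with 3 arrays per group; thick bars are group means and thin bars the SD. The RA arrays of Serpinh1 (2.11 to 2.51) lie above all TSA and vehicle arrays, and the TSA arrays of Fkbp9 (0.161 to 0.288) lie below all RA and vehicle arrays.

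In counts, 1 of 10 probe sets changed with RA, a rise, against 1.36% of all probe sets, and 1 changed with TSA, a fall, against 3.48%. Between RA and TSA 3 differed, all higher in RA, against 3.91% of all. At an unadjusted p under 0.05 there were 2, 3 and 6. The share of all probe sets at that unadjusted level was not computed, so no excess can be read from these counts. With the probe sets of a gene averaged, 1, 1 and 3 of 6 genes passed, against 1.82%, 4.50% and 4.99% of 8251 genes. Arrays did not overlap for 2 of 10 probe sets in RA against vehicle (17.0% of all), for 3 in TSA against vehicle (26.3%) and for 5 in RA against TSA (27.3%). A count of 1 in so short a list says nothing about the enzymes as a group.

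**Figure D2:**
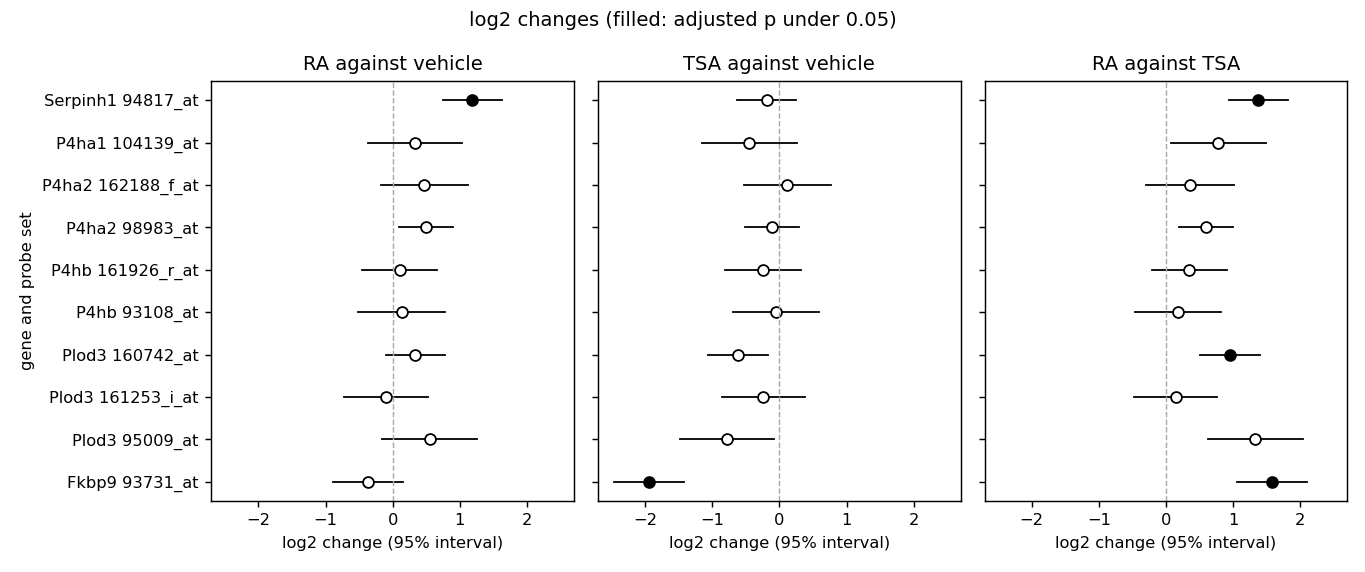
log2 change with its 95% interval for the 10 probe sets in RA against vehicle, TSA against vehicle and RA against TSA; filled points have an adjusted p under 0.05 (limma, Benjamini-Hochberg). Serpinh1 is filled on the left (1.18), Fkbp9 in the middle (-1.94), and Serpinh1 (1.37), Plod3 160742_at (0.95) and Fkbp9 (1.57) on the right.

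Serpinh1, the collagen chaperone, had ratios of 2.38, 2.51 and 2.11 on the RA arrays, 0.990, 0.898 and 0.733 on the TSA arrays, and 1.12, 1.01 and 0.878 on the vehicle arrays. The RA arrays stood clear of the other 6, while TSA and vehicle arrays overlapped. The means were 2.33 ± 0.203 in RA, 0.874 ± 0.130 in TSA and 1 ± 0.119 in vehicle (SD, n = 3 each). The log2 change in RA against vehicle was 1.18 (SE 0.193, 95% interval 0.74 to 1.62), with an adjusted p of 0.0246 by limma. It lay at the 97.4th percentile of all probe sets, among which the median change was -0.12. In TSA against vehicle the change was -0.19 (-0.63 to 0.25), which did not pass (adjusted p = 0.640).

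The size of the Serpinh1 rise was steady and its call was not. Across 19 alternative settings the log2 change in RA against vehicle ran from 1.10 to 1.34, and limma's adjusted p from 0.00122 to 0.119, under 0.05 in 11 of 19. The call held in 3 of 9 fits that leave out 1 array, those without TSA replicate 3, vehicle replicate 1 or vehicle replicate 3. In the test of gene means, with 8251 features to adjust over, it held in 6 of 9 and was lost without RA replicate 1, RA replicate 2 or vehicle replicate 2. Higher Serpinh1 in RA than in TSA, 1.37 (0.93 to 1.81, adjusted p = 0.00812), held in 19 of 19 settings.

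P4ha1, a catalytic alpha subunit of prolyl 4-hydroxylase, had ratios of 1.80, 1.27 and 0.865 in RA, 0.599, 0.969 and 0.619 in TSA, and 1.14, 1.06 and 0.797 in vehicle. The RA arrays spread widely and overlapped both other groups. The log2 changes were 0.33 (95% interval -0.37 to 1.04) in RA and -0.45 (-1.15 to 0.26) in TSA against vehicle, and 0.78 (0.07 to 1.48) in RA against TSA. By limma the adjusted p were 0.724, 0.476 and 0.244, so a change of about 2-fold in RA lies inside the first interval.

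P4ha2, the alternative alpha subunit, was read by 98983_at and 162188_f_at. The first had ratios of 1.495, 1.41 and 1.37 in RA, 0.929, 1.01 and 0.838 in TSA, and 0.883, 1.13 and 0.988 in vehicle. Its RA arrays lay closely together and above the 6 others. The log2 change was 0.50 (0.09 to 0.90) in RA against vehicle and 0.60 (0.20 to 1.00) in RA against TSA, and neither passed limma's test (adjusted p = 0.284 and 0.118). The second probe set had 1.19, 1.38 and 1.498 in RA, 0.909, 0.956 and 1.31 in TSA, and 0.628, 1.32 and 1.06 in vehicle. Its groups overlapped, and its vehicle arrays spread the most. Its change in RA against vehicle, 0.47 (-0.18 to 1.12), was close to the 0.50 of 98983_at.

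P4hb serves as the beta subunit of the same complex and also acts alone as protein disulfide isomerase. Its ratios for 93108_at were 1.07, 0.992 and 1.20 in RA, 0.886, 0.686 and 1.40 in TSA, and 0.777, 1.20 and 1.02 in vehicle. For 161926_r_at they were 1.07, 0.776 and 1.46 in RA, 0.869, 0.841 and 0.782 in TSA, and 0.877, 1.18 and 0.949 in vehicle. In 161926_r_at all 3 TSA arrays were below all 3 vehicle arrays, by a narrow margin, and in 93108_at every group overlapped the others. The changes of the P4hb probe sets ran from 0.10 to 0.13 in RA against vehicle and from -0.25 to -0.05 in TSA against vehicle. Their 95% intervals reached from -0.51 to 0.77 in RA and from -0.81 to 0.59 in TSA, so a change beyond 2-fold lay outside them in both treatments.

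Plod3, a lysyl hydroxylase that also transfers sugars to hydroxylysine, was measured 3 times, and its probe sets differed in size of change. With 160742_at the ratios were 1.34, 1.03 and 1.48 in RA, 0.622, 0.701 and 0.583 in TSA, and 0.944, 1.06 and 0.991 in vehicle. The TSA arrays were below all others, and RA replicate 2 fell among the vehicle arrays. RA exceeded TSA by a log2 difference of 0.95 (SE 0.193, 95% interval 0.51 to 1.39), with an adjusted p of 0.0322 by limma. Neither treatment passed against vehicle, at 0.33 in RA (adjusted p = 0.528) and -0.62 in TSA (adjusted p = 0.129).

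With 95009_at, Plod3 had ratios of 1.45, 1.11 and 1.75 in RA, 0.516, 0.584 and 0.495 in TSA, and 1.20, 1.23 and 0.576 in vehicle. Vehicle replicate 3 lay among the TSA arrays, while the other vehicle arrays lay above all of them. RA exceeded TSA by 1.33 (0.63 to 2.03), with an adjusted p of 0.0535, just outside the threshold. Without vehicle replicate 3 this p became 0.0147, and TSA against vehicle was -1.12 (0.0445) in place of -0.78 (0.210), also by limma. Vehicle replicate 3 was the array with the highest 18S rRNA control signal, and the part of that signal in this value was not tested.

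The remaining Plod3 probe set, 161253_i_at, had 0.749, 0.926 and 1.03 in RA, 0.723, 0.811 and 0.892 in TSA, and 0.640, 1.03 and 1.33 in vehicle. All groups overlapped, and RA against TSA was 0.14 (-0.48 to 0.76). As a mean of its 3 probe sets, Plod3 was higher in RA than in TSA by 0.81 (0.39 to 1.23), with a limma adjusted p of 0.0417 over genes. That gene call held in 2 of 9 fits without 1 array, those without vehicle replicate 1 or vehicle replicate 3. For 160742_at alone the call held in 3 of 9, those without RA replicate 2, vehicle replicate 1 or vehicle replicate 3, and its adjusted p, at most 0.121, was under 0.05 in 9 of 19 settings.

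Fkbp9, a peptidyl-prolyl isomerase of the endoplasmic reticulum that binds FK506, had ratios of 0.883, 0.733 and 0.678 in RA, 0.288, 0.161 and 0.232 in TSA, and 1.03, 1.09 and 0.872 in vehicle. Every TSA array was below every RA and vehicle array, and RA replicate 1 overlapped the vehicle arrays. The means were 0.765 ± 0.106 in RA, 0.227 ± 0.0636 in TSA and 1 ± 0.115 in vehicle (SD, n = 3 each). In TSA against vehicle the log2 change was -1.94 (SE 0.227, 95% interval -2.46 to -1.43), with a limma adjusted p of 0.00495. It lay at percentile 0.403 of all probe sets, near the low end.

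The Fkbp9 fall kept its call in 18 of 18 settings that measured it, with log2 changes from -2.12 to -1.72 and limma adjusted p up to 0.0254. A filter on the lowest 30% by mean ratio takes Fkbp9 out because of its own fall. RA against vehicle was -0.37 (-0.89 to 0.15), which did not pass (adjusted p = 0.557). RA exceeded TSA by 1.57 (1.06 to 2.09, adjusted p = 0.00921), again in 18 of 18 settings.

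Set side by side, the 10 changes in RA against vehicle had a median of 0.33, with 8 above 0, against a median of -0.12 and 37.7% above 0 over all probe sets. For TSA against vehicle the median was -0.24 with 1 above 0, against -0.17 and 36.1%. For RA against TSA it was 0.69 with 10 above 0, against 0.046 and 54.2%. The 3 comparisons share their arrays, and probe sets of 1 gene share a target, so these are not separate observations. Centring each array on its median moved the median change of all probe sets to 0.035 in RA and 0.029 in TSA. Relative to that, Serpinh1 was at 1.34 in RA and Fkbp9 at -1.74 in TSA, both still called, while 9 of 10 changes were above 0 in RA and 4 of 10 in TSA. Serpinh1 in TSA was 0.011 under centring, against -0.19 without it, and 98983_at of P4ha2 and 93108_at of P4hb also turned positive there. In RA against TSA, 10 of 10 stayed above 0 under centring, and 93108_at went to -0.039 without TSA replicate 2.

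**Figure D3:**
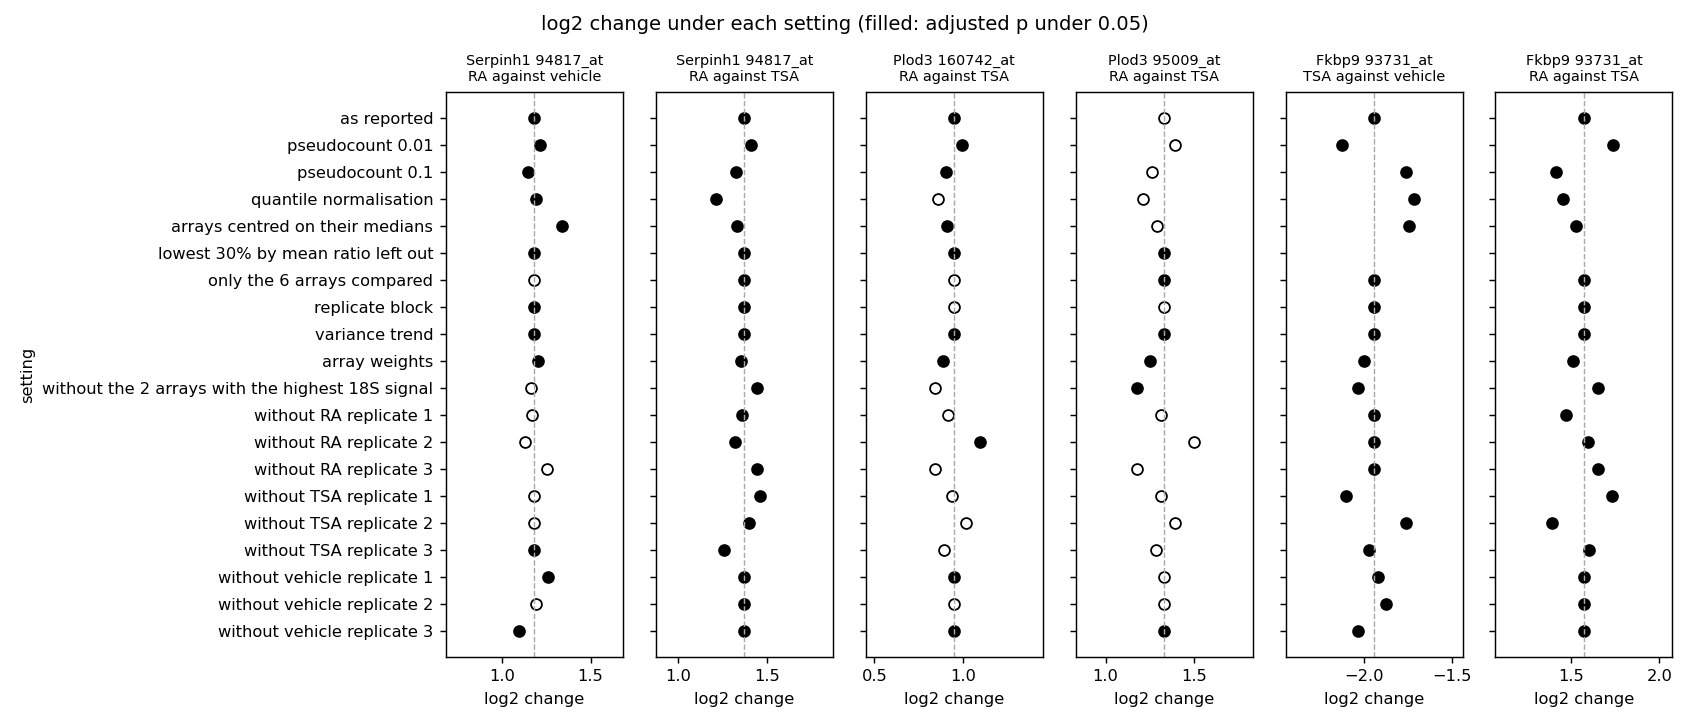
log2 change of Serpinh1, Plod3 and Fkbp9 probe sets as reported and under 19 alternative settings, which run down the page; filled points have an adjusted p under 0.05, the dashed line is the value as reported and each panel spans 1 log2 unit. Serpinh1 in RA against vehicle stays between 1.10 and 1.34 and is filled in 11 of 19, and Fkbp9 in TSA against vehicle is filled in all 18 settings that hold it.

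The enzymes work with other proteins of the endoplasmic reticulum, and 17 of 23 such genes were measured. None changed with RA in the gene-level test, and 2 fell with TSA. Ppib, cyclophilin B, which isomerises prolines of procollagen in a complex with Crtap, had 0.971, 0.890 and 0.888 in RA, 0.554, 0.526 and 0.622 in TSA, and 1.17, 1.01 and 0.972 in vehicle. Its TSA arrays were below all others, with a log2 change of -0.89 in TSA against vehicle (adjusted p = 0.0232). The chaperone Hsp90b1 (Grp94) changed by -0.84 in TSA (adjusted p = 0.0410) and was higher in RA than in TSA by 0.87 (adjusted p = 0.0331), all by limma. Left without 1 array, the Ppib call held in 4 of 9 fits, and the Hsp90b1 calls held in 1 of 9 for TSA and 2 of 9 for RA against TSA. The list's median change was 0.029 in RA, -0.26 in TSA and 0.56 in RA against TSA, where 14 of 17 were above 0. Medians over all genes were -0.12, -0.15 and 0.032, and 52.8% of all genes were above 0 in RA against TSA. For this list and those below, the shares of all genes that passed were 1.82% in RA, 4.50% in TSA and 4.99% in RA against TSA.

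**Figure D4:**
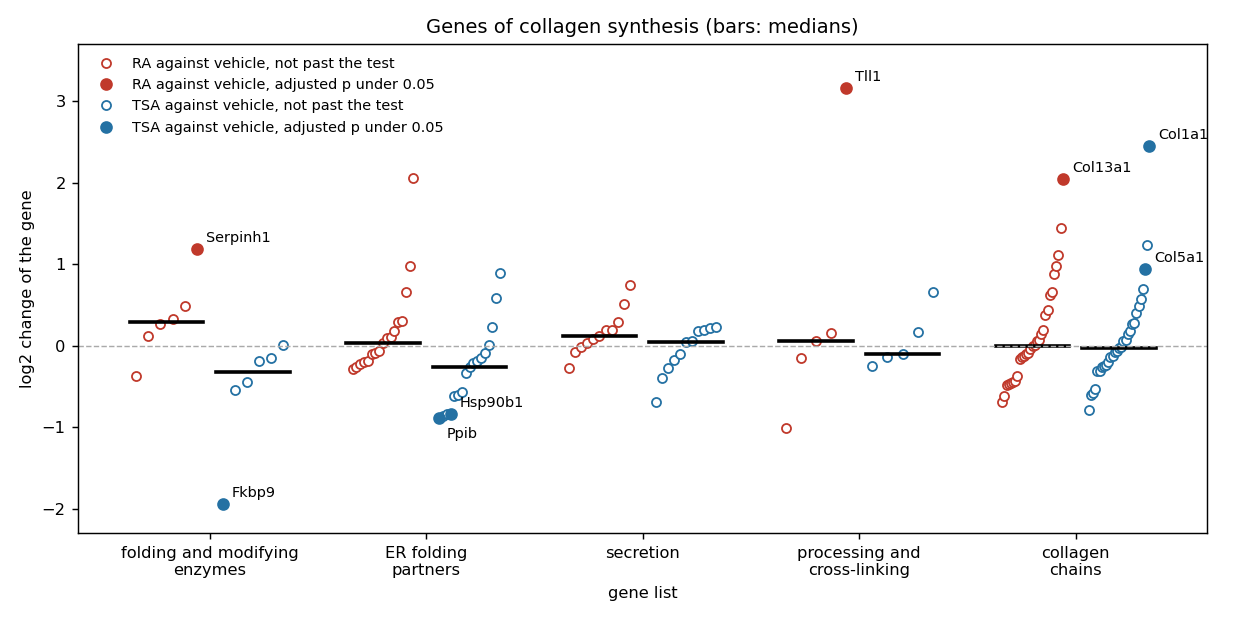
log2 change of each gene in RA (red) and TSA (blue) against vehicle for the folding and modifying enzymes and 4 lists of related genes (ER, endoplasmic reticulum); filled points have an adjusted p under 0.05 by limma over 8251 genes and black bars are list medians. Filled are Serpinh1, Tll1 and Col13a1 in RA and Fkbp9, Ppib, Hsp90b1, Col1a1 and Col5a1 in TSA.

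Of 16 genes of collagen secretion, 11 were measured and none passed in any comparison, with changes from -0.27 to 0.75 in RA and from -0.69 to 0.23 in TSA. Of 13 genes that trim or cross-link procollagen outside the cell, 5 were measured. Tll1, a protease related to the procollagen C-proteinase Bmp1, had 9.35, 7.48 and 7.11 in RA, 1.33, 2.15 and 0.956 in TSA, and 0.616, 1.96 and 0.576 in vehicle. Only its RA arrays stood apart, at 3.16 against vehicle (adjusted p = 0.0143) and 2.50 against TSA (0.0206), with calls in 7 and 4 of 9 fits without 1 array. The vehicle arrays of Tll1 themselves differed by over 3 times.

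The collagen chains are the substrates of the prolyl and lysyl hydroxylases and are bound by Serpinh1, and 29 of 33 were measured. In RA 1 rose, Col13a1, a transmembrane collagen (2.04, adjusted p = 0.0204), and in TSA 2 rose, the fibrillar chains Col1a1 (2.45, 0.0154) and Col5a1 (0.94, 0.0228). With the other compound, Col13a1 was at 1.24 in TSA (limma adjusted p = 0.0735). Col5a1 was at 0.62 in RA (0.132) and Col1a1 at -0.43 in RA (0.718). RA against TSA did not pass for Col13a1 (limma adjusted p = 0.240) or Col5a1 (0.381). Neither probe set of Col13a1 passed alone, and both have suffixes (f and r) that mark probes which can match other transcripts or break design rules. Among the enzymes, 162188_f_at of P4ha2 and 161926_r_at of P4hb carry these suffixes too, and gene means weigh all probe sets alike. Col1a1 was lower in RA than in TSA, at -2.88 (adjusted p = 0.00600), in 9 of 9 fits without 1 array. Of its probe sets, 94305_at changed by 4.31 in TSA, and 103709_at, which did not pass, was at 0.59. Of the Col5a1 probe sets, 101080_at changed by 1.78 in TSA, and 93472_at, which did not pass, was at 0.095. Col4a1, a basement membrane chain, had 3.43, 2.65 and 2.14 in RA, 0.939, 0.955 and 0.801 in TSA, and 1.05, 0.615 and 1.49 in vehicle. Its RA arrays were above all others, with RA against TSA at 1.59 (limma adjusted p = 0.0266 over genes). RA against vehicle was at 1.45 and did not pass, at a limma adjusted p of 0.0684 over genes. For its only probe set, the latter was 0.0919 over probe sets. Without 1 array the Col13a1 call held in 5 of 9 fits, those of Col1a1 and Col5a1 in TSA in 6 and 5, and that of Col4a1 in 4.

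Prolyl hydroxylases that sense oxygen use the same cofactors, and of 6 genes of that system 4 were measured. Egln1, which marks Hif1a for degradation, had 1.71, 1.55 and 1.25 in RA, 0.600, 0.271 and 0.592 in TSA, and 1.32, 0.998 and 0.829 in vehicle. Its TSA arrays were the lowest, and RA against TSA was 1.70 (limma adjusted p = 0.0233), a call held in 6 of 9 fits without 1 array. Against vehicle, none of the 4 passed with either compound.

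By root mean square difference of log2 values over the 9 arrays, the genes closest to Serpinh1 were Ski (0.129), Rev3l (0.151), Cited2 (0.186), Zmynd8 (0.196) and Gng10 (0.212). Their log2 changes ran from 0.97 to 1.14 in RA and from -0.21 to -0.025 in TSA. The genes closest to Fkbp9 were Msmo1 (0.172), Cyp51 (0.201), Bcat2 (0.241), Ak4 (0.259) and Syt9 (0.261). These changed by -0.55 to -0.10 in RA and by -2.09 to -1.59 in TSA. Such distances describe 9 arrays in 3 groups, and any genes with alike group means come out close.

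Some features of the arrays moved with the groups, and others did not. Mean log2 values of 10 markers of the undifferentiated state were -0.923 to -0.849 on RA arrays, -1.27 to -1.03 on TSA arrays and -0.199 to 0.201 on vehicle arrays; 4 of 10 fell and 1 rose in RA, and 4 fell in TSA. For 10 parietal endoderm markers the means were 0.513 to 0.625 in RA, 0.302 to 0.793 in TSA and -0.339 to 0.262 in vehicle, with 2 rises in each treatment. For 10 visceral endoderm markers they were 0.098 to 0.265, -0.380 to 0.148 and -0.634 to 0.445, with 1 rise in RA. Fibroblast and feeder markers, which include the chains Col1a1 and Col5a1, gave -0.392 to -0.192 in RA, 0.126 to 0.565 in TSA and -0.511 to 0.479 in vehicle, with none of 14 rising in RA and 3 in TSA. The vehicle range of that list was wide through replicate 3 (0.479, against -0.403 and -0.511). All RA arrays and TSA replicates 1 and 2 lay inside it. As ratios carry no brightness, whether a marker is absent cannot be read, and the part of any cell type in the results was not tested.

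Median ratios of the arrays ran from 0.863 to 0.915 in RA, from 0.822 to 0.878 in TSA and from 0.976 to 1.01 in vehicle. Ratios of the 18S rRNA control probe sets differed far more: 0.961 for RA replicate 3, 2.40 for vehicle replicate 3, 0.538 for vehicle replicate 1 and at most 0.0730 for the remaining 6 arrays. Hybridisation controls, added to each sample as a technical standard, had median ratios of 0.616, 0.412 and 1.10 on the RA arrays, 0.557 to 0.717 on the TSA arrays and 0.895 to 1.05 on the vehicle arrays. All TSA arrays and RA replicates 1 and 2 were thus below all vehicle arrays in these controls, and RA replicate 3 was above them. The part of this in the TSA and RA results, those of Fkbp9 and Serpinh1 included, was not tested. Without vehicle replicate 3 and RA replicate 3, Serpinh1 changed by 1.17 in RA (limma adjusted p = 0.0833) and Fkbp9 by -2.03 in TSA (0.0187). The ratio of 3′ to 5′ control probe sets, a sign of RNA integrity, relative to vehicle, was 0.922 to 1.07 for Gapdh on all 9 arrays.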

How the data were processed

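RNA of 9 samples, 3 per group, was hybridised by an Affymetrix protocol at a core facility, per the labels. Values were deposited as linear ratios, and the labels of the vehicle samples name GeneSpring as the software. The vehicle arrays average 1 in each probe set, within 1.93e-07, so the authors' ratios are to the vehicle mean. For scaling, background correction and genome build, the sources used here give no detail. Groups and replicate numbers come from the titles. The 66 control probe sets were left out, leaving 12422, of which 10833 had 1 symbol, 396 several and 1193 none in the platform annotation; symbols were updated through Entrez IDs (RefSeq, GRCm38.p6).

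Values were analysed as log2(ratio + 0.05) with limma 3.58.1 in R 4.3.3, in 1 fit over 9 arrays (6 residual degrees of freedom) with Benjamini-Hochberg adjustment over all probe sets or, for means of a gene's probe sets, 8251 genes. The procedure was tested on simulated data. The number of arrays limits the precision. Named beyond the members were listed genes that passed, at most 4 a list, and the 5 nearest genes of Serpinh1 and Fkbp9; Calr and the Fkbp relatives fall outside this rule and were chosen after their values, or those of Fkbp9, were seen. The members, lists and arrays doubted were chosen with earlier results of these data known. Alternatives were other pseudocounts (0.01, 0.1), 2 scalings, a 30% filter, 6-array fits, a replicate block, a variance trend, array weights, and arrays left out.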

Additional observations from a re-analysis of the deposited data

How the results depend on the processing

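For the 10 enzyme probe sets, none of the called changes turned direction in the 19 alternatives. In RA against vehicle the count of 1 became 0 with only the 6 arrays compared and 0 when RA replicate 3 and vehicle replicate 3 (highest in 18S signal) were dropped, and ranged from 0 to 1 when 1 array was left out; it was 0 without any 1 of the 3 RA arrays, TSA replicates 1 or 2, or vehicle replicate 2, and Serpinh1 changed by at least 1.10 in each. In TSA against vehicle the count of 1 became 0 with the 30% filter, which removes Fkbp9, 5 with array weights, 2 with that pair of arrays dropped, and ranged from 1 to 2 when 1 array was left out, 2 being without vehicle replicate 3. In RA against TSA the count of 3 became 5 with array weights and stayed between 2 and 4 otherwise. The array weights called 4494 of all probe sets in TSA against 432 without them, and their estimate stopped before it converged. Over all probe sets, quantile normalisation called 87 in RA, 108 in TSA and 152 in RA against TSA, in place of 169, 432 and 486, and 6-array fits called 61 in RA and 168 in TSA. Deviations of same-numbered samples correlated by -0.032 to 0.289. These correlations were not above 0.1 in every pair, so the numbers were not taken to pair the samples. Replicate 3 was positive in every pair (0.19, 0.289 and 0.237), and RA with vehicle in replicate 1 was at 0.249. Whether same-numbered arrays shared a batch was not tested. With the replicate block the counts were 1, 1 and 2, the Plod3 call being lost (adjusted p = 0.0605), and no other call changed. The causes were not tested. Brightness is unknown, so dim and bright probe sets were not separated.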

Other observations

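Fkbp9 belongs to the FK506-binding isomerases, and 10 other genes with a symbol starting Fkbp were measured; they were picked by name after the values of Fkbp9 were seen. None of the 10 passed limma's gene-level test in any comparison, at log2 changes from -0.46 to 0.64 in RA and from -0.62 to 0.15 in TSA, against -1.94 for Fkbp9 in TSA. Fkbp2, which resides in the endoplasmic reticulum as Fkbp9 does, was at -0.58 in TSA against vehicle (adjusted p = 0.127) and at 0.79 in RA against TSA (adjusted p = 0.0519). Fkbp7 and Fkbp11, also of the endoplasmic reticulum, were at -0.33 and -0.26 in TSA against vehicle. Fkbp1b, a partner of calcium release channels, was at 0.64 in RA against vehicle (adjusted p = 0.130). Whether Fkbp9 differs from its relatives was not tested.

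Calr, the calreticulin gene, had ratios of 3.82, 2.93 and 3.46 in RA, 0.496, 3.42 and 2.07 in TSA, and 0.387, 0.673 and 2.09 in vehicle, chosen here after its values were seen. The Calr replicates differed by more than 5 times within both TSA and vehicle, and the change of 2.05 in RA did not pass (limma adjusted p = 0.266).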
